A study of Mus musculus with 4 samples.

Results

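The cytosolic heat shock chaperones are a set of 10 mouse genes whose proteins fold and refold other proteins in the cytosol. Members were found by taking every non-control spot that carried one of the 10 gene names on Agilent mouse expression arrays. This gave 13 spots, each a different probe of 60 bases, for 9 of the 10 genes, out of 59305 non-control spots and 55681 probes in all. No spot carried the name Hspa1b, although the Hspa1a probe lists accessions of both near-identical genes and cannot separate them. Hspa8 had 3 probes, Hsph1 and Dnaja1 had 2 each, and the other 6 genes had 1 each.

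RNA came from 32D-EpoR cells, a myeloid progenitor line of the mouse into which the receptor for erythropoietin (Epo) was introduced. Both groups had been moved from RPMI that held FBS and 10% WEHI medium, a source of interleukin-3, into RPMI with 10% FBS alone. The Epo group then received Epo at 10 U/ml and the control group received none. Each group had 2 arrays, which the design text ties to 2 independent experiments with cells of different passages. How long the cells were kept with Epo is not stated in the labels, and the line is a model for Epo signalling in cells that otherwise depend on interleukin-3.

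Cytosolic folding runs through a few families. HSP70 proteins, with Hspa8 as the constitutive form and Hspa1a and Hspa1b as the strongly heat-inducible pair, hold unfolded stretches of a client protein. J-domain proteins such as Dnaja1 and Dnajb1 bring clients to HSP70 and drive its ATP hydrolysis, and the HSP110 protein Hsph1 exchanges its nucleotide. The HSP90 proteins Hsp90aa1 and Hsp90ab1 finish kinases and receptors, JAK2 at the Epo receptor among them, with helpers such as Chordc1, while the small heat shock protein Hspb1 keeps unfolded proteins from clumping. In red cell precursors HSP70 is known for shielding the transcription factor GATA1 from caspase cleavage. Heat shock factor 1 drives many of these genes through inverted repeats of the letters GAA and TTC in their promoters.

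With Epo, 3 member genes rose: Hsph1, Chordc1 and Dnaja1, by log2 changes between 0.63 and 1.05. The Hspa8 probes differed in direction: as scaled, the probe nearest the transcript's start was higher and the probe nearest its end lower. The latter lay above 0 without scaling, and no pair of these probes differed in its change past the threshold. Hsp90aa1, Hsp90ab1 and Dnajb1 did not pass the test in either direction, and the probes of the stress-inducible Hspa1a and Hspb1 were not well above background on any array. Of the 7 member genes tested by limma (adjusted p under 0.05, 1 probe per gene), 3 were called higher, where 13.1% of all 17555 genes tested were called higher. In the same fit 1 member, Hspa8 through its brightest probe, was called lower, where 14.3% of all genes were. By probe, 5 of the 11 members that passed the filter on dim signals were called higher against a background of 13.0%. None of the 11 was called lower by limma, where 12.9% of all probes were. An unadjusted limma p under 0.05, in either direction, was found for 7 of the 11 and for 9910 of all 23735 kept probes.

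All levels below are log2 processed intensities after each array was shifted to the same 75th percentile, and a change is the mean with Epo minus the mean without. A probe's level depends on its own sequence, so levels are compared between arrays and not between probes. These are bulk samples, in which fewer cells with a transcript and less of it per cell cannot be told apart. The shift matters here: the median change over all genes was -0.06 as scaled, 0.68 without any scaling, 0.999 when arrays were scaled on 8 spike-in control probes, and -0.19 with the percentile taken over detected probes. When replicate number was added as a blocking term, 19.9% of all genes were called higher and 23.2% lower, and 19.8% of all probes higher and 20.5% lower. Adjusted p-values are limma's, and with 2 arrays a group an exact permutation test could not go below 0.333.

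**Figure D1:**
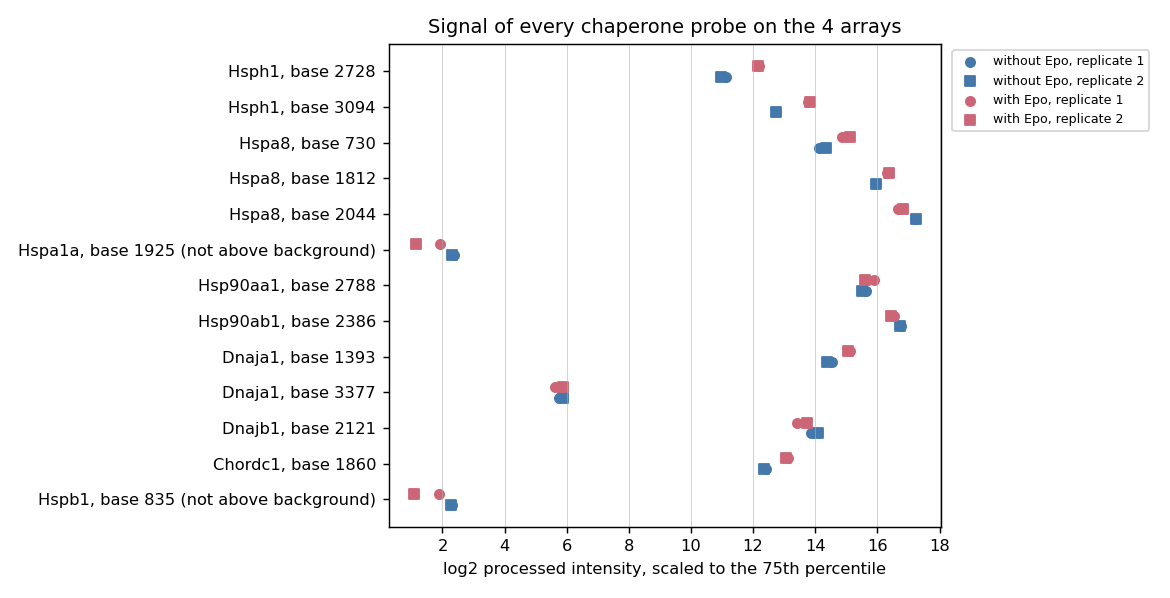
Log2 processed intensity (x axis, each array scaled to the same 75th percentile) of the 13 chaperone probes, named by gene and by the first base of the probe in its transcript. Blue points are the 2 arrays without Epo and red points the 2 with Epo; both Hsph1 probes and the Chordc1 probe are higher on both Epo arrays, the Hsp90aa1 arrays overlap, and the dim Hspa1a and Hspb1 probes were not well above background on any array.

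Hsph1, the HSP110 partner of HSP70, showed the largest change of the set. Its probe at transcript base 3094 (mm9, chr5:150419744-150419803, minus strand) read 12.75 and 12.73 without Epo and 13.76 and 13.83 with Epo. Its probe at base 2728 (chr5:150420110-150420169, minus strand) read 11.12 and 10.97 without Epo and 12.20 and 12.16 with Epo. On both probes each Epo array lay above each control array. In the fit of genes the log2 change at base 3094 was 1.05 ± 0.11 (SE; limma adjusted p = 0.00793), or 2.07-fold. In the fit of probes the change at base 2728 was 1.13 ± 0.13 (limma adjusted p = 0.00897), or 2.19-fold. There base 3094 had the same limma adjusted p of 0.00897. The change of the log2 ratio of the base 3094 to the base 2728 signal was -0.08 ± 0.14, so the probes differed by less than their error. The Hsph1 call held in 12 of 14 alternative analyses. It was lost when the dim probes were kept (adjusted p = 0.126) and when Epo replicate 1 was left out (0.0709).

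Hspa8, the constitutive HSP70, had 3 probes that did not move together. They are shown because their changes fell in order along the transcript. That was also the order of rising signal, with means of 14.24, 15.95 and 17.22 without Epo, so position and signal strength cannot be told apart. No pair of the 3 probes differed in its change past the threshold. The first 2 lie at transcript bases 730 (mm9, chr9:40611142-40611201, plus strand) and 1812 (chr9:40612755-40613050, a span of 296 bases that a probe of 60 bases reaches only across an intron). The third lies at base 2044 (chr9:40613223-40613282), and 30 of its bases are printed. Capitals mark AATAAA, the common polyadenylation signal, which starts at base 37 of that probe.
Hspa8 base 730: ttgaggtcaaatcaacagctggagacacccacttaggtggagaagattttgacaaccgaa
Hspa8 base 1812: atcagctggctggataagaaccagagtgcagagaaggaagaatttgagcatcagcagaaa
Hspa8 base 2044: gtaacatggaatAATAAAactatttaaatt
Stop codons interrupt every reading frame of the base 2044 probe, while 1 frame is open in the base 730 probe and 2 are open in the base 1812 probe.

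The Hspa8 probe at base 730 read 14.13 and 14.35 without Epo and 14.87 and 15.11 with Epo, with no overlap. It rose by 0.75 ± 0.16 on the log2 scale, or 1.68-fold (limma adjusted p = 0.0322), a call lost with the percentile over detected probes (0.0545), with dim probes kept (0.173) and without any one of the 4 arrays (0.0671 to 0.149). The probe at base 1812 read 15.94 and 15.96 without Epo and 16.30 and 16.38 with Epo, again with no overlap. Its change of 0.39 ± 0.12 missed the threshold (adjusted p = 0.0739, 95% interval 0.08 to 0.70) and passed it in 6 of 13 alternatives. Limma's adjusted p was 0.0406 with the replicate number as a block, 0.0275 with normexp background, 0.031 with quantile normalization, 0.0152 with a variance trend, 0.00231 without scaling and 0.00112 with spike-in scaling. Both Epo arrays were thus higher at the probes nearer the transcript's start.

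The base 2044 probe went the other way. It read 17.21 and 17.23 without Epo and 16.65 and 16.81 with Epo, so that both Epo arrays were below both controls. Its change was -0.49 ± 0.12, 1.40-fold lower, with an adjusted p of 0.0471 in limma's fit of genes, 0.0524 in its fit of probes and 0.0335 among probes with the block. The gene is represented by its brightest probe, so Hspa8 was called lower through base 2044 alone. The mean of its 3 probes lay at 0.22 (adjusted p = 0.247), and without any one of the 4 arrays the call of the gene was lost (0.130 to 0.290). Without scaling the base 2044 probe lay at 0.26 (adjusted p = 0.483 in the fit of genes) and with spike-in scaling at 0.58 (0.0577), both above 0.

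As scaled, most probes as bright as the base 2044 probe fell as well. The 369 kept probes whose mean signal lay within log2 0.5 of the base 2044 probe had a median change of -0.31, and 4.34% of them were called lower against 0.271% called higher. Most of these probes changed by -0.47 to -0.16, and the base 2044 probe lay below that range at -0.49. For the base 730 and base 1812 probes the like medians were -0.06 and -0.21, below the changes measured there. Most probes of like signal changed by -0.34 to 0.49 for base 730 and by -0.39 to 0.04 for base 1812. The changes of 0.75 and 0.39 at these bases lay above those ranges. This comparison was added after the data were seen, and the part of signal strength in the fall was not tested.

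Ratios of probes within an array do not depend on a shift shared by all its probes, as the percentile and spike-in scalings are, but quantile normalization can move them. With quantile normalization the probes at bases 2044, 730 and 1812 lay at -0.19, 0.75 and 0.58. The log2 ratio of base 2044 to base 730 was 3.07 and 2.87 without Epo and 1.78 and 1.70 with Epo. That of base 2044 to base 1812 was 1.26 and 1.27 without Epo and 0.35 and 0.43 with Epo. In both, each Epo array was below each control. The changes of these ratios were -1.23 ± 0.15 and -0.88 ± 0.13, with unadjusted p of 0.000948 and 0.00227 and limma adjusted p of 0.0531 and 0.0682 over 9182 probe pairs of 4387 genes. With the replicate number as a block limma's adjusted p was 0.0765 and 0.0897. For the ratio of base 1812 to base 730 the change was -0.36 ± 0.16 (adjusted p = 0.379). Over all pairs 1.66% passed the threshold and none of the 5 member pairs did. The labelling reaction was primed on the poly(A) tail, per the labels' protocols. The part of priming, of transcript ends and of related loci in the differences between the Hspa8 probes was not tested.

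**Figure D2:**
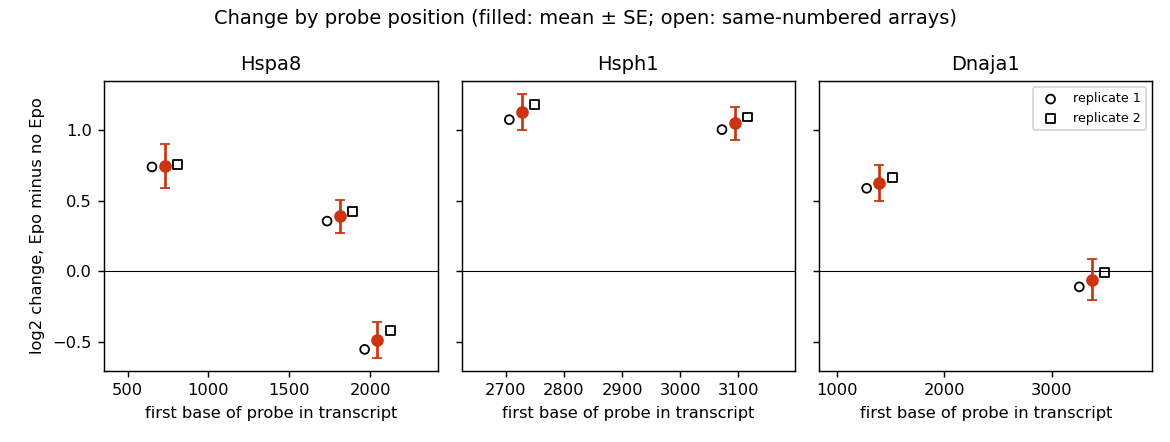
Log2 change with Epo (y axis) against the first base of the probe in its transcript (x axis) for the 3 chaperone genes with several probes. Filled points are means with SE bars and open points the difference between same-numbered arrays, drawn to the left and right of the mean; Hspa8 runs from 0.75 at base 730 to -0.49 at base 2044, while the Hsph1 probes lie at 1.13 and 1.05.

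The files also hold 9 probes named for loci described as similar to a member, chosen for mention after their descriptions were seen. They include 2 described as HSP70 cognate-like. Of these, the probe of Gm7899 rose by 0.72 ± 0.16 (limma adjusted p = 0.0376), and that of LOC641192 lay at 0.45 ± 0.19 (adjusted p = 0.155). A probe of Gm5511, described as HSP86-like, lay at 0.80 ± 0.35 (adjusted p = 0.154). The probes of Gm6368 and Gm14107, described as like the beta form of HSP90, lay at 0.14 ± 0.12 and 0.10 ± 0.12, and the other 4 probes did not pass the filter on dim signals.

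The heat-inducible HSP70 genes Hspa1a and Hspa1b were not well above background. Their shared probe starts at base 1925 of the Hspa1a transcript (mm9, chr17:35107117-35107176, minus strand) and is printed because it is all the array reads of the pair.
Hspa1a: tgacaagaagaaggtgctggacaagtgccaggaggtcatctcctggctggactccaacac
Its unscaled processed intensity was 3.77 and 4.04 units without Epo and 4.32 and 3.26 units with Epo, and the scanner software called it well above background on 0 of 4 arrays. No fold change is given for it.

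Dnaja1, the J-domain partner that loads HSP70, rose at its upstream probe, while its downstream probe showed no detectable difference. The probe at base 1393 (mm9, chr4:40679954-40680014, plus strand) read 14.53 and 14.38 without Epo and 15.12 and 15.05 with Epo, with no overlap. It rose by 0.63 ± 0.12 on the log2 scale, or 1.55-fold (limma adjusted p = 0.0262 in the fit of genes and 0.0293 in the fit of probes). The probe at base 3377 (chr4:40681938-40681997) read 5.74 and 5.87 without Epo and 5.64 and 5.87 with Epo, so the groups overlapped. It was dim but well above background on 4 of 4 arrays. Its change in the fit of probes was -0.06 ± 0.14 (limma adjusted p = 0.786, 95% interval -0.44 to 0.32). The change of the log2 ratio of the downstream to the upstream probe was -0.69 ± 0.19, with an unadjusted p of 0.0216 and a limma adjusted p of 0.200. The Dnaja1 call held in 8 of 14 alternatives and was lost with the mean of its probes (change 0.29, adjusted p = 0.125), with dim probes kept (0.179) and without any one of the 4 arrays (0.0603 to 0.182).

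Dnajb1, the J-domain protein most tied to the heat shock response, was not called. Its probe at base 2121 (mm9, chr8:86135660-86135719, plus strand) read 13.86 and 14.09 without Epo and 13.41 and 13.73 with Epo. Both Epo arrays were lower, but the gap was smaller than the distance between the Epo arrays. The change was -0.41 ± 0.17 (limma adjusted p = 0.144, 95% interval -0.86 to 0.04). With the replicate number as a block it passed (adjusted p = 0.0358), and it lay at 0.34 without scaling and 0.65 with spike-in scaling.

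The HSP90 pair itself showed no called change. Hsp90aa1, the inducible form (base 2788, mm9, chr12:111929248-111929307, minus strand), read 15.62 and 15.51 without Epo and 15.90 and 15.61 with Epo. The lower Epo array lay between the control arrays, so the groups overlapped, and the change was 0.19 ± 0.15 (limma adjusted p = 0.395, 95% interval -0.21 to 0.58). Hsp90ab1, the constitutive form (base 2386, chr17:45704788-45704847, minus strand), read 16.77 and 16.74 without Epo and 16.52 and 16.44 with Epo. Both Epo arrays were lower, by a change of -0.27 ± 0.11 (adjusted p = 0.140, 95% interval -0.57 to 0.03). The 383 kept probes of like signal had the same median change of -0.27, and without scaling or with spike-in scaling Hsp90ab1 lay at 0.47 and 0.79, the latter past the threshold (adjusted p = 0.0121). With a variance trend limma called Hsp90ab1 lower at the same -0.27 (adjusted p = 0.0373). Hsp90aa1 was called higher without scaling, at 0.93 (limma adjusted p = 0.0114), and with spike-in scaling, at 1.25 (0.00139).

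Chordc1, an HSP90 partner with CHORD domains, rose. Its probe (base 1860, mm9, chr9:18118100-18118159, plus strand) read 12.42 and 12.36 without Epo and 13.12 and 13.07 with Epo, and the groups did not overlap. The change was 0.71 ± 0.11, or 1.63-fold (limma adjusted p = 0.0165, 95% interval 0.41 to 1.004). The call held in 9 of 14 alternatives and was lost with dim probes kept (adjusted p = 0.179) and without any one of the 4 arrays (0.0546 to 0.138).

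Hspb1, the small heat shock protein of the set (base 835, mm9, chr5:136365366-136365425, plus strand), read 3.63 and 3.93 intensity units without Epo and 4.21 and 3.12 with Epo before scaling. It was well above background on 0 of 4 arrays, and no fold change is given.

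**Figure D3:**
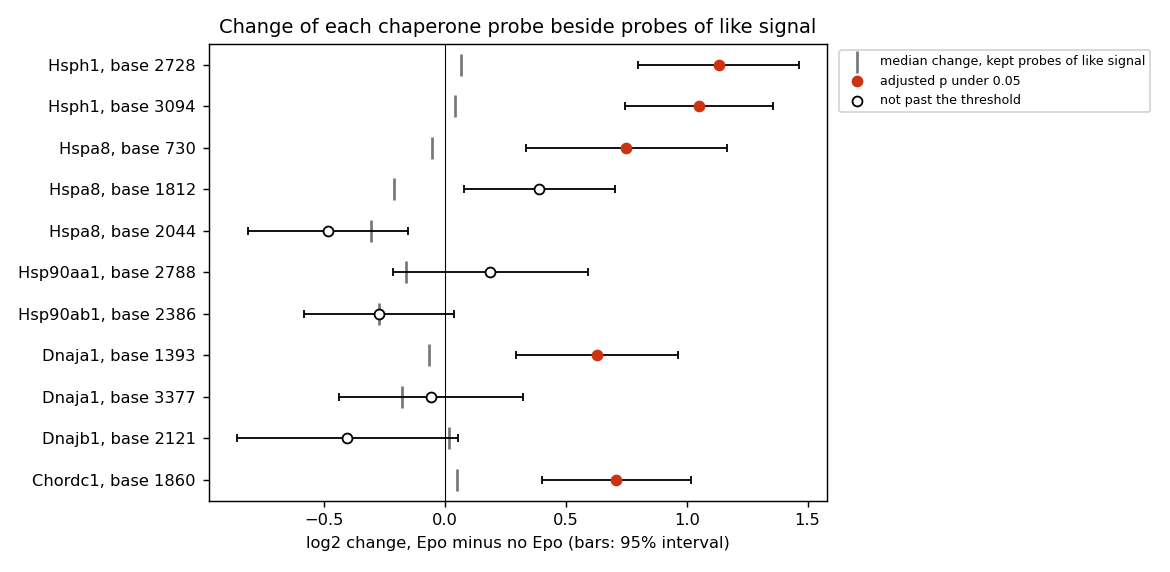
Log2 change with Epo (x axis) of the 11 chaperone probes that passed the filter, with 95% intervals. Red points passed an adjusted p of 0.05 in limma's fit of probes, open points did not, and grey ticks give the median change of kept probes with a mean signal within log2 0.5 of that probe; the tick for Hsp90ab1 sits on its change of -0.27, and the Hsph1 changes of 1.05 and 1.13 stand farthest to the right.

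Across scalings, Hsph1, Dnaja1 and Chordc1 were called higher under each of the 5 tried. Hspa8, Hsp90ab1 and Dnajb1 lay below 0 with either percentile and with quantile normalization, and above 0 without scaling and with spike-in scaling, where 46.9% and 77.6% of all genes were called higher. Member genes had a median change of 0.19 where all genes had -0.06. Under quantile normalization their median was 0.32 against -0.04, and without scaling it was 0.93 against 0.68.

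**Figure D4:**
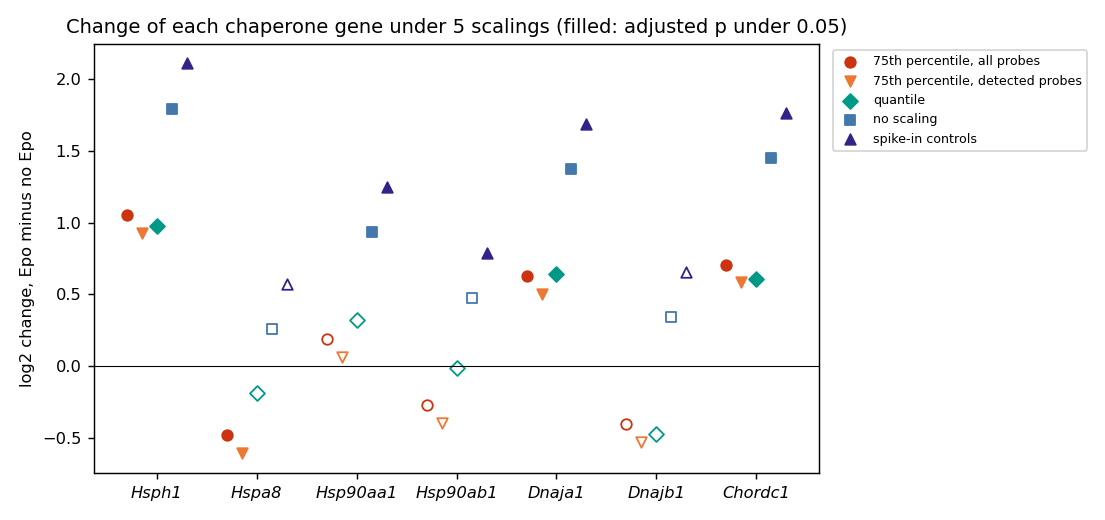
Log2 change with Epo (y axis) of the 7 tested chaperone genes under 5 ways of scaling the arrays; filled symbols passed an adjusted p of 0.05. Hsph1, Dnaja1 and Chordc1 are filled throughout, while Hspa8, Hsp90ab1 and Dnajb1 change sign between the percentile scalings and the values without scaling or with spike-in controls.

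Promoter windows from RefSeq (GRCm38.p6, 250 bases before to 50 after a transcript start) were at hand for 7 members in 11 windows: Hsph1, Chordc1, Dnaja1, Dnajb1, Hspa1a, Hspa1b and Hspb1. Hspa8, Hsp90aa1 and Hsp90ab1 had none. Each window was searched for the heat shock element letters GAANNTTC or TTCNNGAA, 2 inverted units that read the same on both strands. It was also searched for the 3-unit run GAANNTTCNNGAA or TTCNNGAANNTTC, which are reverse complements and contain the 2-unit forms. Over all 32851 windows of the same length, 15.1% held a 2-unit match and 0.603% a 3-unit match. A 3-unit match was present in 3 of the 11 member windows, those of Hsph1 and Chordc1, both called higher above. Dnaja1, also called higher, held none of these matches in its windows. The stretches below show these matches in capitals, from 5′ to 3′ along the gene's strand.
Hsph1 (chr5:149636279-149636308, minus strand): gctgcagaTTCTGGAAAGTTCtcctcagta
Chordc1 (chr9:18292260-18292289, plus strand): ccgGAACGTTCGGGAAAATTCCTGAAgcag
The Hsph1 match starts 16 bases into the transcript with the more downstream of its 2 annotated starts, and the Chordc1 run starts 4 bases before the transcript's start.

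The 2-unit letters were present for 6 of the 7 members with a window, that is for all but Dnajb1, whose 2 windows held none. Counted by window, as the 15.1% over all windows was, the letters were present in 7 of 11. For Dnaja1 they lay 124 bases before the most upstream of its 3 annotated starts and in neither of its other windows. For the genes not above background they lay 104 bases before the start in Hspa1a and in Hspa1b and at 117 and 97 bases before it in Hspb1. The stretches that hold these matches, again in capitals, show that the letters occur both in a member that rose and in members whose probes were at background.
Dnaja1 (chr4:40722318-40722377, plus strand): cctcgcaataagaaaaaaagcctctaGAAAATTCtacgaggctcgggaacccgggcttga
Hspa1a (chr17:34972227-34972286, minus strand): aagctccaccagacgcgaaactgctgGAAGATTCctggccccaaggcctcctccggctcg
Hspb1 (chr5:135887776-135887835, plus strand): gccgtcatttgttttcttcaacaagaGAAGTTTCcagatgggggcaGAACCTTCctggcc
The windows of Hspa1a and Hspa1b are identical at 296 of 300 bases. A match, or its absence, describes exact letters within these windows only. Inexact letters and sequence farther from the start were not searched, and binding was not measured in these samples.

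The related families were read through lists by role, outside the 10 members, which were chosen with earlier results of these data known. Of the 68 genes tested on 8 lists, 16 were called higher and 5 lower by limma, against 13.1% and 14.3% of all genes. Most of the rises, 10 of 14 tested, were on the list of chaperones of the mitochondrion and endoplasmic reticulum, with a median change of 0.69. On the other 7 lists 6 of 54 were higher and 5 lower, with a median of 0.02 beside -0.06 for all genes. With the replicate number as a block limma called 29 list genes in place of 21. Without Epo replicate 1 limma called 1 list gene, Bag2, and without any one of the other arrays it called 6 to 11.

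The largest rises on the cytosolic lists were those of Bag2 and Bag5, BAG-domain partners of HSP70. Bag2 read 9.29 and 9.53 without Epo and 11.11 and 11.36 with Epo, a change of 1.83 ± 0.16 (limma adjusted p = 0.00600). Bag5 rose by 1.35 ± 0.14 (adjusted p = 0.00728), and its other kept probe lay at 1.11. These were the only calls among 9 tested HSP70 partners, whose median change was 0.27. The heat-inducible Bag3 was not tested because its signal was too dim.

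Among 5 tested members of the HSP70 and HSP110 family outside the set, the HSP110 gene Hspa4 alone was called, at 0.68 ± 0.11 (limma adjusted p = 0.0184). Its other kept probes lay at 0.05 and -0.05, so its probes also disagreed. Of 17 tested HSP90 co-chaperones, 1 was called: Ppid, the cyclophilin that binds HSP90, read 12.57 and 12.24 without Epo and 13.58 and 13.44 with Epo, a rise of 2.14-fold (log2 SE 0.16, limma adjusted p = 0.0142). Its other 3 probes lay between 1.11 and 1.43. The co-chaperone list had a median change of 0.10.

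Of 13 tested J-domain genes, 2 were higher and 2 lower. Dnajc21 and Dnajc2, which work at the ribosome, rose by 1.24 ± 0.25 (limma adjusted p = 0.0278) and 0.77 ± 0.15 (0.0281). Dnajc6, which uncoats clathrin vesicles, fell by 0.98 on the log2 scale (SE 0.12, adjusted p = 0.00943), and lay at -0.24 without scaling and 0.08 with spike-in scaling. Dnajc9, a histone chaperone, lay at -0.56 ± 0.14 (adjusted p = 0.0467) and at 0.19 without scaling.

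Small heat shock proteins had 3 tested genes of 7. Cryab changed by -1.02 ± 0.17 (limma adjusted p = 0.0176) and Hspb6 by -0.96 ± 0.20 (0.0317), although they lay at -0.27 and -0.22 without scaling and at 0.04 and 0.10 with spike-in scaling. Cryab was dim, at 6.02 and 5.71 without Epo and 4.95 and 4.74 with Epo, though well above background on both arrays of each group. None of Hsf1, Hsf2 and Hsbp1, the 3 tested genes on the list of heat shock factors and their binding protein, passed limma's threshold. An unadjusted limma p under 0.05 was found for 1 of the 3 and for 7502 of all 17555 genes tested. Hsf1, the main driver of the heat shock response, read 10.00 and 10.23 without Epo and 10.56 and 10.61 with Epo, a change of 0.47 ± 0.13 (adjusted p = 0.0641, 95% interval 0.11 to 0.82). With the replicate number as a block limma called Hsf1 higher (adjusted p = 0.0371). Hsf2 lay at -0.20 ± 0.12 (adjusted p = 0.278) and Hsbp1, the binding protein, at 0.01 (adjusted p = 0.944). Of 4 other heat-inducible genes, Dedd2 was called lower at -0.83 ± 0.12 (adjusted p = 0.0141) and lay at 0.23 with spike-in scaling.

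Of the chaperones of the mitochondrion and endoplasmic reticulum, the largest changes were 1.12 ± 0.14 for Hyou1, the endoplasmic reticulum relative of Hsph1, and 1.20 ± 0.13 for the J-domain gene Dnajb9. Hspa5, the HSP70 of the endoplasmic reticulum, rose by 0.64 ± 0.14, and Pdia4 and Dnajb11, which work beside it, by 0.79 and 0.73. In the mitochondrion, Hspd1, the large chaperonin subunit, rose by 0.73 ± 0.14, while its small partner Hspe1 lay at 0.05 ± 0.13, short of the threshold. Grpel2 and Dnaja3, partners of the mitochondrial HSP70, rose by 0.85 and 0.81. The difference in count between this list and the cytosolic set was not tested.

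**Figure D5:**
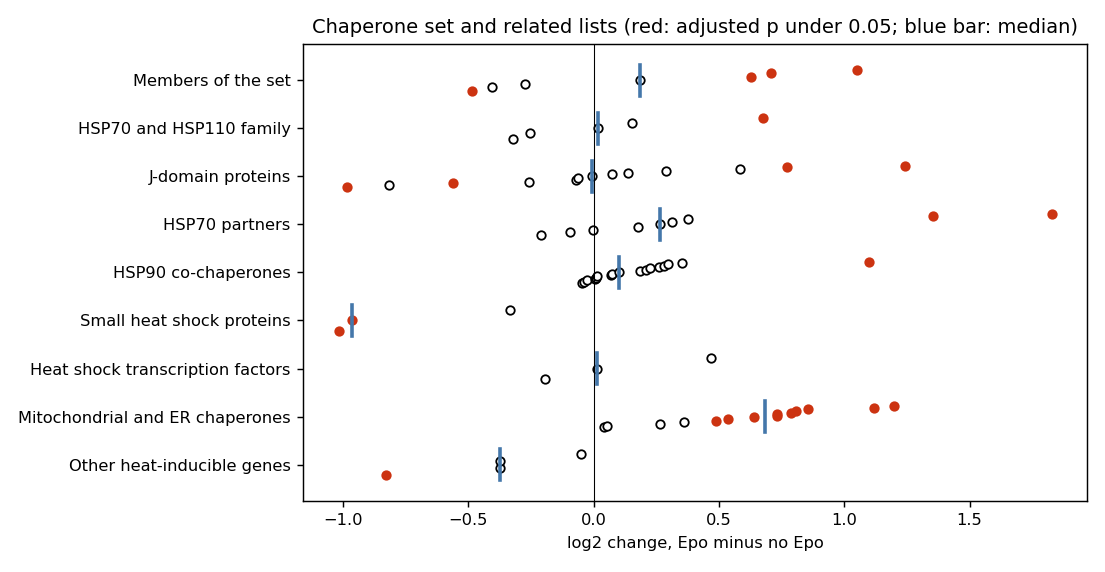
Log2 change with Epo (x axis) of the 7 tested chaperone members and of the genes on 8 related lists, 1 point per gene; red points passed an adjusted p of 0.05 in limma's fit of genes and the blue bar is the list's median. The median of the mitochondrial and endoplasmic reticulum list is 0.69 and that of the members 0.19.

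The 4 arrays shared 1 slide and 1 scan, so neither separates the groups. The 75th percentile of intensity was 224 and 250 units without Epo and 347 and 454 with Epo, and 41.3% to 47.9% of probes were well above background. No member spot was saturated or marked as an outlier. The line's identity was read from 15 myeloid and mast cell genes, of which 12 were above background on all arrays and Kit and Ms4a2 on none. Of the 7 erythroid genes on the array, 4 were above background on all arrays. Alas2, the heme synthesis enzyme of maturing red cells, was not above background on any array. Summed levels are given as scaled. That of the erythroid list was 11610 and 13290 units without Epo and 8127 and 8320 with Epo. This sum weighs the brightest gene most and depends on the scaling. The changes of all tested erythroid genes were positive without scaling and with spike-in scaling. For the macrophage list the sum was 3707 and 3611 without Epo and 4492 and 4805 with Epo. Of its 8 genes, 3 were above background on all arrays, and Mrc1, C1qa and Mertk on none. Within it limma called Adgre1 higher at 1.03 (adjusted p = 0.00888) and Csf1r lower at -0.79 (adjusted p = 0.0138). Csf1r lay at -0.04 without scaling and 0.27 with spike-in scaling. The lymphoid list, with 6 of 8 genes above background on no array, went from 1540 and 1674 to 842 and 906. Its tested genes changed by -0.40 and -0.02 without scaling and by -0.08 and 0.29 with spike-in scaling. The stromal, endothelial and epithelial list, with Epcam above background on no array, went from 1219 and 1167 to 1497 and 1594. The members of the last list moved both ways, since limma called Pecam1 higher at 0.75 (adjusted p = 0.0216) and Pdgfrb and Cdh5 lower at -2.45 and -0.54 (adjusted p = 0.00397 and 0.0426). Without scaling and with spike-in scaling Cdh5 lay at 0.21 and 0.52, and Pdgfrb at -1.70 and -1.39. The part of these lists in the chaperone results was not tested.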

How the data were processed

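Each array's deposited file was written by Feature Extraction, version 10.1.1.1, and gives every spot a processed intensity. Per the file headers, the authors' software corrected this intensity for background, and arrays were not brought to a common scale. In the submitters' processing notes limma is named with no role. Here log2 of that intensity was taken, and each array was shifted so that its 75th percentile over non-control spots equalled the mean of the 4 percentiles. The filter kept a probe if both arrays of the Epo group, or both of the other group, had it well above background. It passed 23735 probes for 17555 genes, and a gene was read through the brightest of these. Gene names were updated through a RefSeq table, and probe positions are those of the files, on mm9. Exon and UTR were not assigned here.

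Epo was compared with no Epo in R 4.3.3 with limma 3.58.1 (two-sided lmFit and eBayes fit, Benjamini-Hochberg over all genes or all probes, threshold 0.05, 2 residual and 4.57 total degrees of freedom), and the steps were tested on simulated data. The median SE of a change was 0.14, and the number of arrays limits the precision. Replicate numbers were read as the 2 experiments, which pairs the samples: deviations from the group mean correlated at 0.386 between same-numbered arrays. The main fit leaves the pairing out. P-values rest on the spread between 2 samples per group. The members and the gene lists were chosen with earlier results of these data known. Members are named with every probe; list genes are named when past the threshold, at most 8 per list, or else the 2 with the smallest p. Exceptions named outside that rule are Bag3 and Hspe1, and the loci similar to a member. Alternatives covered background correction (normexp, offset 50), scaling, the filter, the variance trend, the replicate block, the mean of a gene's probes, and leaving out each array. The ratios of probes, the probes of like signal and the similar loci were added after the data were seen. For 1 marker gene the result is not reported here.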

Additional observations from a re-analysis of the deposited data

How the results depend on the processing

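Of 14 alternatives, the number of member genes called stayed within 1.5 times the main count of 4 in 8. With dim probes kept, limma called 0 genes of all 36310, 0 member genes and probes and 0 genes of the related lists. An unadjusted limma p under 0.05 was then found for 3 of 9 member genes and for 7148 of all genes. Leaving out each array gave 659 to 3329 calls over all genes, 0 to 1 member genes (0 to 1 higher and 0 lower), 0 to 2 member probes (0 to 2 higher) and 1 to 11 list genes, the fewest without Epo replicate 1; the lone array is then assumed to vary like the other group. The mean of a gene's probes gave 2 member genes, 0 of them lower.

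Without scaling 8595 genes and 47 list genes were called, and with spike-in scaling 13827 genes, 62 list genes, 5 member genes higher and 9 member probes, all higher. With spike-in scaling 13626 of all 17555 genes and 18449 of all 23735 probes were called higher. The single lower member gene was lost (0) with normexp, no scaling, quantile and spike-in scaling. Lower member genes numbered 2 with a variance trend and 2 with the replicate block, where 3011 and 4068 of all 17555 genes were lower. Lower member probes numbered 1 with the percentile over detected probes (4342 of all 23735 probes) and 1 with the filter on all arrays (3303 of 21456). They numbered 2 with the trend (3758 of 23735) and 2 with the block (4876 of 23735). With the trend and with the block 8 of the 11 member probes were called in all, 6 of them higher. Over all probes 3580 were called higher with the trend and 4711 with the block.

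With the replicate block as a term limma called 7565 genes against 4804, and it changed the calls of Dnajb1 and of the Hspa8 probes at bases 1812 and 2044, given above, and of no other member. Changes that turned sign without scaling and with spike-in scaling were those of Hspa8 (0.26, 0.58; also 0.22 with the mean of its probes), Hsp90ab1 (0.47, 0.79), Dnajb1 (0.34, 0.65) and the Dnaja1 probe at base 3377 (0.69, 1.002). That probe also turned with quantile normalization (0.13), and leaving out each array moved it from -0.17 to 0.058, above 0 without no-Epo replicate 2 and without Epo replicate 1. The cause was not tested. For Hspa1a and Hspb1, signal at background limits what the arrays can show.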
